A study of Mus musculus with 6 samples.

Results

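The genes described here are 51 protein-coding mouse genes for ATP-dependent chromatin remodelers and the bromodomain proteins named alongside them, out of 54532 genes in the deposited table, 22046 of which are protein coding. They were taken by gene symbol and chromosome, as the autosomal genes of the Smarc, Arid1, Arid2, Chd, Brd, Dpf, Actl6, Pbrm1, Phf10, Ss18, Bcl7 and Ino80 names. RNA-seq compared whole hearts of mice at 4 days of age, 3 of genotype Wtapflox/flox (called Wtap-flox) and 3 labelled Wtap-CKO, a conditional knockout of the same gene. The series asks how WTAP, a subunit of the complex that places the m6A mark on messenger RNA, affects heart development. The Cre driver of the knockout, its deleted exons, and the sex and litter of the mice are not stated in the sources used. The labels call the 3 samples of a group separate biological replicates.

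Chromatin remodelers use ATP to slide, evict or exchange nucleosomes, and so set which promoters and enhancers transcription factors can reach. The SWI/SNF or BAF family builds on an ATPase, BRG1 (Smarca4) or BRM (Smarca2), a shared core of Smarc and actin-like subunits, and further subunits that make canonical BAF, PBAF or non-canonical BAF. CHD proteins join an ATPase to chromodomains, ISWI enzymes space nucleosomes, and INO80 exchanges histone variants. In the heart, BRG1 and the BAF subunits encoded by Smarcd3 and Dpf3 are known for their part in cardiac development, and CHD4 with its NuRD partners for keeping skeletal muscle genes off. BET bromodomain proteins, such as those of Brd2 and Brd3, do not move nucleosomes but bind acetylated histones and act in transcript elongation.

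Levels are FPKM, read counts scaled for gene length and library size, so levels of different genes can be set side by side. The library size used was not the count of assigned reads. It was 17431182 against 16589331 reads in Wtap-flox 1, and 16148068 against 16485304 in Wtap-CKO 1. The sizes of the 6 libraries were proportional to median-ratio size factors. This scaling sets the typical gene near equal between libraries, so falls and rises are relative to that gene. Reads assigned to genes ran from 15649028 to 18045599 per library, and 1 read on a 1 kb gene equalled 0.0564 to 0.0647 FPKM. Each library was closer to its own group than to the other, and the second principal component (20.4% of the variance) set Wtap-CKO 3 apart. Wtap itself stood at 7.77, 8.74 and 10.9 FPKM in Wtap-flox 1 to 3 and at 9.32, 7.75 and 9.46 FPKM in Wtap-CKO 1 to 3. The groups overlapped, with a log2 fold change of -0.04 (95% interval -0.37 to 0.29, adjusted p = 0.893, limma). Since the deleted exons are not given, a count over the whole gene does not check the genotype, and the group names below are those of the labels.

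Of the 51 genes, 47 had a mean of at least 1 FPKM and were tested among 12568 genes. Their mean levels ran from 1.37 FPKM (Chd9) to 40.9 FPKM (Chd4), with a median of 8.62 FPKM against 6.58 FPKM over all genes tested. The other 4 were low: Brd3os, a gene opposite Brd3 that the name rule takes in, at 0.489 to 0.853 FPKM, Dpf1 at 0.0945 to 0.357 FPKM, Chd5 at 0.0359 to 0.172 FPKM, and Actl6b at 0 in all 6 libraries. Dpf1, Chd5 and Actl6b are known as genes of neurons. The heart expressed the progenitor form Actl6a in place of Actl6b, at 7.41 to 12.3 FPKM.

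In the libraries labelled Wtap-CKO, transcripts of 3 BAF subunit genes (Dpf3, Smarcd1 and Actl6a), the BET gene Brd3 and the SNF2 enzyme gene Chd1l fell at an adjusted p under 0.05, and no member rose. These are 5 of 47 members (10.6%), where 6.69% of all genes tested fell and 9.91% rose, so the count of falls lay near the background. At an unadjusted p under 0.05 the counts were 14 lower (29.8%, against 14.2% of all genes) and 2 higher (4.26%, against 17.5%). The median log2 fold change was -0.15 over the members and 0.00 over all genes, and 36 of 47 members (76.6%) lay below 0, as did 49.6% of all genes. The scaling of the deposited levels holds the median of all genes near 0. In 18 members (38.3%) every Wtap-CKO library was below every Wtap-flox library, an arrangement found in 17.3% of all genes. The opposite arrangement held for Bcl7c, Brd7 and Ss18l2, which make 6.38% of the members, against 19.8% of all genes.

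**Figure D1:**
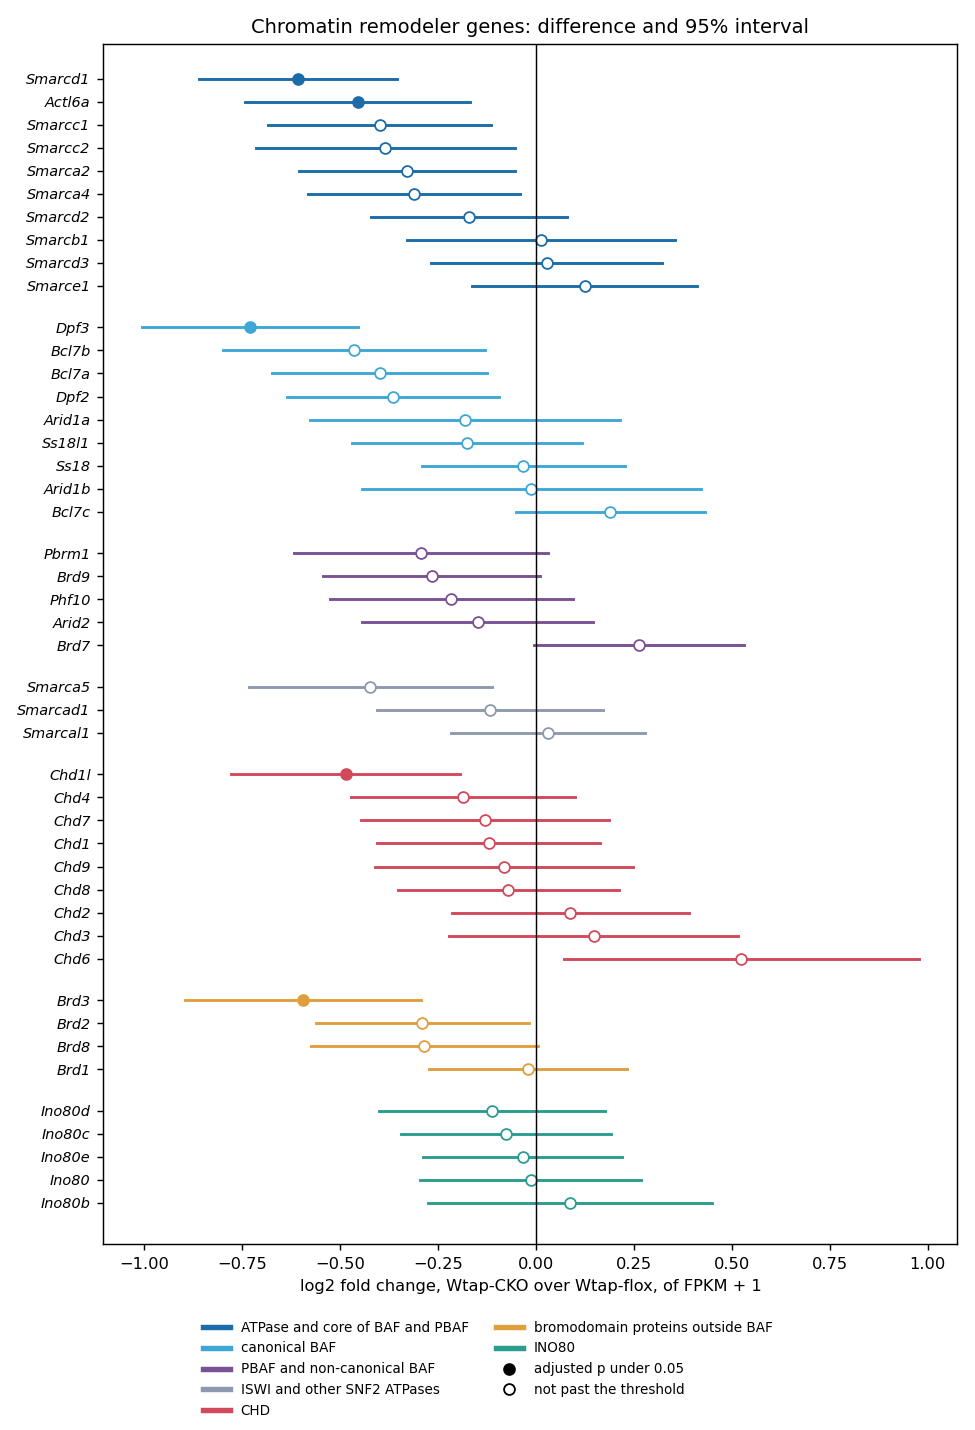
The log2 fold change of FPKM + 1, Wtap-CKO over Wtap-flox (x axis), is drawn as a point with its 95% interval for the tested members with a role group that are reported by name, with rows grouped by role. The 5 filled points, Dpf3, Smarcd1, Brd3, Chd1l and Actl6a, passed an adjusted p of 0.05 and all lie below 0, while Chd6 lies farthest above 0.

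Whole hearts mix cell types, so fewer cells of a type and less RNA per cell cannot be told apart. Cardiomyocyte markers summed to 14340 to 17545 FPKM in Wtap-flox and 15686 to 18756 FPKM in Wtap-CKO. Of these 8 markers only the calcium release channel gene Ryr2 passed the test, and it fell. Of 8 proliferation markers, 6 fell (Mki67, Top2a, Mcm2, Mcm5, Pcna and Ccna2), where 6.69% of all genes fell. The 8 summed to 177 to 267 FPKM in Wtap-flox and 128 to 146 FPKM in Wtap-CKO, without overlap. Of 6 macrophage markers, C1qa, C1qb and Mrc1 rose, where 9.91% of all genes rose. The 6 summed to 30.3 to 35.2 FPKM against 45.7 to 71.4 FPKM. The part of these markers in the members' differences was not tested. Endothelial, fibroblast and smooth muscle lists gave 1 lower (Kdr), 1 lower (Dcn) and 0 calls. The 6 neuron and Schwann cell markers summed to 2.68 to 3.26 FPKM against 2.56 to 3.95 FPKM, and the 6 erythroid markers to 661 to 2172 FPKM against 1226 to 2206 FPKM, with 0 calls in either list.

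Of the 10 tested core genes of BAF and PBAF, 2 fell and 0 rose, 7 stood wholly lower in Wtap-CKO, and the median log2 fold change was -0.32. Of all genes, 6.69% fell and 17.3% stood wholly lower. Their summed level was 133 to 145 FPKM in Wtap-flox and 108 to 120 FPKM in Wtap-CKO. Smarcd1 encodes the subunit through which many transcription factors contact the complex. It measured 16.8, 16.5 and 15.5 FPKM in Wtap-flox and 10.9, 9.49 and 10.7 FPKM in Wtap-CKO. The groups lay well apart, with little spread in either. The log2 fold change was -0.61 (95% interval -0.86 to -0.35, adjusted p = 0.00791), and the ratio of the mean levels was 0.636. Smarcd1 (ENSMUSG00000023018) lies on the plus strand at chr15:99702129-99713991, in GRCm38 coordinates as for all positions here.

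Actl6a (ENSMUSG00000027671, plus strand, chr3:32706298-32726973) encodes the actin-like subunit that docks on the ATPase. It measured 9.98, 12.1 and 12.3 FPKM in Wtap-flox and 8.02, 7.41 and 8.82 FPKM in Wtap-CKO. Wtap-flox 1 was the low one of its group, yet still above all Wtap-CKO libraries (log2 fold change -0.46, 95% interval -0.74 to -0.17, adjusted p = 0.0404). This call was lost without Wtap-CKO 1 (adjusted p = 0.111), Wtap-CKO 2 (0.0938), Wtap-flox 2 (0.14) or Wtap-flox 3 (0.125), and with a replicate block (0.0667). Its 3′ end overlaps Mrpl47 on the opposite strand over 1577 bases, and whether counting used strand is not stated.

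The ATPase genes themselves did not pass the threshold in the reported fit. Smarca4 (BRG1) measured 24.8, 27.4 and 23.4 FPKM in Wtap-flox and 18.7, 21.2 and 20.4 FPKM in Wtap-CKO. Smarca2 (BRM) measured 5.36, 4.43 and 4.35 FPKM against 3.61, 3.78 and 3.22 FPKM. In both genes all Wtap-CKO libraries were below all Wtap-flox libraries. Smarca4 had a log2 fold change of -0.31 (adjusted p = 0.11) and Smarca2 one of -0.33 (adjusted p = 0.0993). BRM made up 15.8% ± 1.94 (SD, n = 3) of the summed level of the pair in Wtap-flox and 15.0% ± 1.27 (SD, n = 3) in Wtap-CKO, and the groups overlapped (exact permutation p = 0.6, where the smallest possible is 0.1). Smarca4 passed under TPM (adjusted p = 0.0294), quantile (0.0441) and upper-quartile scaling (0.0487), and Smarca2 under TPM scaling (0.0486).

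The scaffold genes showed the same arrangement without passing in the reported fit. Smarcc1 measured 11.6, 11.4 and 11.1 FPKM against 8.10, 9.75 and 7.38 FPKM (log2 fold change -0.40, adjusted p = 0.0603). Smarcc2 measured 33.5, 30.5 and 26.3 FPKM against 19.4, 24.7 and 24.4 FPKM (log2 fold change -0.38, adjusted p = 0.107), the Wtap-CKO libraries again all lower. Without Wtap-CKO 2, the highest of its group, Smarcc1 passed (adjusted p = 0.0328). It also passed under TPM (0.0277), quantile (0.0418) and upper-quartile scaling (0.0362), by limma-voom on recovered reads (0.0424) and with the length trend removed (0.0433), and Smarcc2 passed under TPM scaling (0.037).

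Not every core subunit was lower. Smarcb1, the subunit that grips the nucleosome's acidic patch, measured 6.61 to 7.99 FPKM in Wtap-flox and 5.89 to 8.87 FPKM in Wtap-CKO, overlapping (log2 fold change 0.01). Smarce1, an HMG-box subunit, measured 11.7 to 12.7 FPKM against 11.9 to 15.4 FPKM (log2 fold change 0.12, adjusted p = 0.544). Smarcd3, the subunit known for its place in heart and muscle, measured 10.3, 13.5 and 10.5 FPKM in Wtap-flox and 11.8, 11.4 and 11.5 FPKM in Wtap-CKO. The Wtap-CKO values sat inside the Wtap-flox range, and the log2 fold change was 0.03 (95% interval -0.27 to 0.32, adjusted p = 0.907). Smarcd3 overlaps the coding gene Chpf2 on the opposite strand over 3739 bases, and reads of the pair may not be separated. Under TPM scaling Smarcb1, Smarce1 and Smarcd3 had log2 fold changes of -0.15, -0.03 and -0.13, when the median of all genes moved to -0.15. Smarcd2 measured 9.84 to 10.7 FPKM against 8.32 to 9.56 FPKM (log2 fold change -0.17, adjusted p = 0.325).

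**Figure D2:**
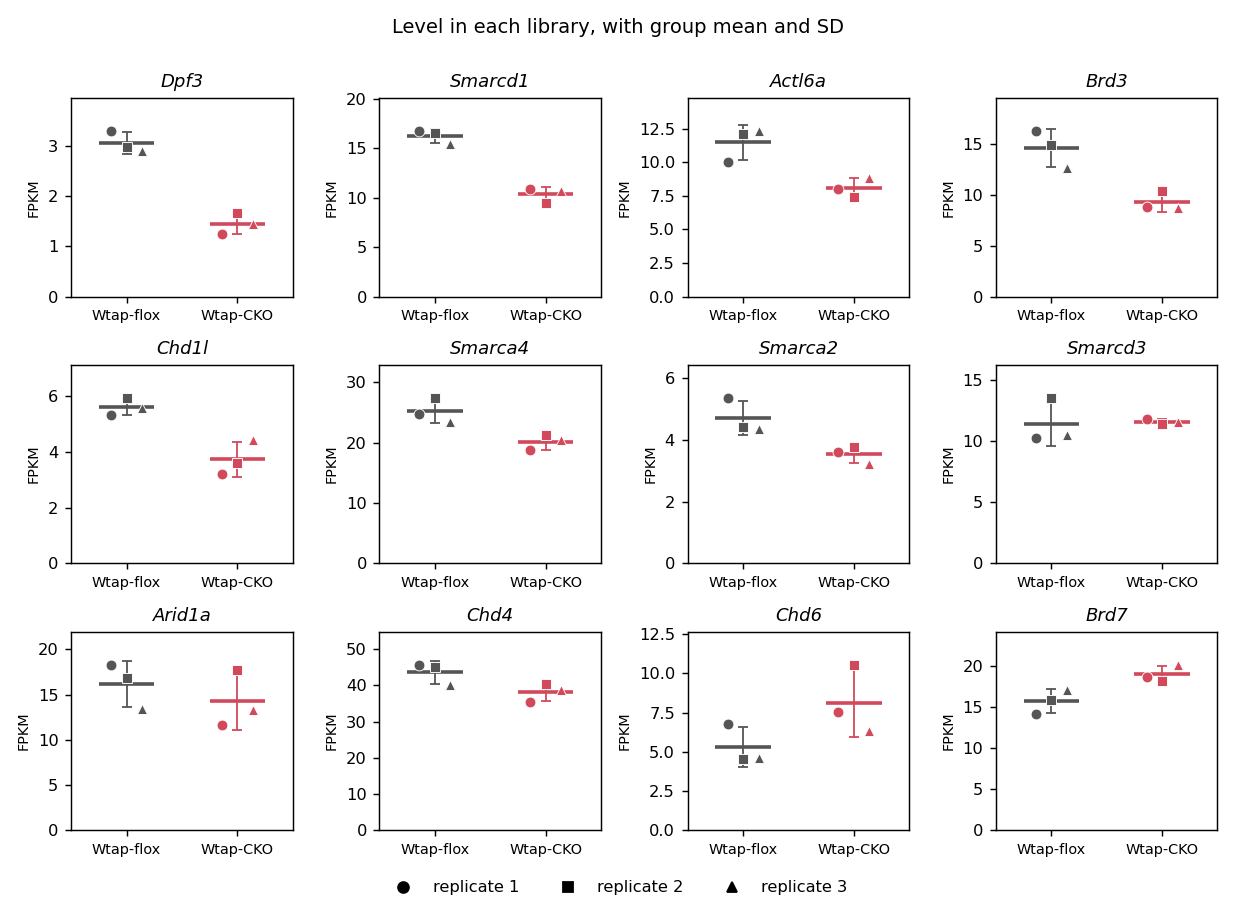
Levels in FPKM (y axis, from 0) of 12 members are plotted for each library, with symbols for the replicate number and bars for the group mean and SD, n = 3. The Wtap-CKO points lie below all Wtap-flox points for Dpf3, Smarcd1, Actl6a, Brd3, Chd1l, Smarca4 and Smarca2, above them for Brd7, and within the Wtap-flox range for Smarcd3.

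Of the 9 tested genes of canonical BAF, 1 fell and 0 rose, and the median log2 fold change was -0.18. Among all genes, 6.69% fell and 9.91% rose. Dpf3 had the largest fall on the log2 scale of any member. It encodes a plant homeodomain subunit that reads histone acetylation and methylation and is known from heart and muscle development. It measured 3.30, 2.98 and 2.90 FPKM in Wtap-flox and 1.25, 1.67 and 1.44 FPKM in Wtap-CKO, from 85 to 243 reads per library. The highest Wtap-CKO library was well below the lowest Wtap-flox library. The log2 fold change was -0.73 (95% interval -1.01 to -0.45, adjusted p = 0.00515). The added 1 FPKM understates the change of a gene this low, and the ratio of the mean levels was 0.474. Dpf3 (ENSMUSG00000021221) lies on the minus strand at chr12:83213745-83487716.

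The promoters of Dpf3 and Smarcd1, the members called lower in all settings that tested them, are shown with that of Smarcd3, the paralog of Smarcd1 that stayed within its spread. Each is the 250 bases before the RefSeq start in GRCm38.p6, 5′ to 3′ on the gene's strand. Capitals mark the GC box, GGGCGG or its reverse complement, and in Smarcd1 also the E2F-type sequence TTTCCCGC.
Dpf3 promoter, chr12:83487737-83487986, minus strand: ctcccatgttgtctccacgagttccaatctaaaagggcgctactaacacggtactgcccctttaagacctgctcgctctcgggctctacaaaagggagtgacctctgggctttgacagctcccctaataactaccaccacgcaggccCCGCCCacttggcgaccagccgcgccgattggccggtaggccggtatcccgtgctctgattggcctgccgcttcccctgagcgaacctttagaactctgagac
Smarcd1 promoter, chr15:99702037-99702286, plus strand: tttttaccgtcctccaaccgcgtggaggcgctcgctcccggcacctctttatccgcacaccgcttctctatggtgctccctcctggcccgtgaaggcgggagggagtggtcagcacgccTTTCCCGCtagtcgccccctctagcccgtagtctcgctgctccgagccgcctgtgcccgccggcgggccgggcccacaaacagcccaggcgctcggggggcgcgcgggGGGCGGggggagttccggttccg
Smarcd3 promoter, chr5:24602003-24602252, minus strand: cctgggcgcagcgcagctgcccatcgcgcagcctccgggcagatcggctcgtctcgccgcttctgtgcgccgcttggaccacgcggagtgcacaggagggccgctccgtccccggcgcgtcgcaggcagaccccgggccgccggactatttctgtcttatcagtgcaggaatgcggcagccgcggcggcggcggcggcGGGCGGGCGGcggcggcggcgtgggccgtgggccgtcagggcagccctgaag
The RefSeq start lies 22409 bases from the 5′ end of the gene in the deposited table for Smarcd3, 32264 bases for Brd3 and 2248 bases for Actl6a, so for these the window may not be the promoter in use. For Smarcd1 it lies 158 bases inside the gene as deposited. Both marked stretches of Smarcd1, at -131 and -23 from the RefSeq start, thus fall within the deposited gene. GC boxes stood in all 3 windows shown. Since the Smarcd3 window may not be its promoter, they cannot show whether the motif separates the called genes from Smarcd3. Of the 39 members with a RefSeq promoter, 31 held a GC box on either strand (79.5%, against 32.7% of 32851 promoters of this length). TATAAA stood in 1 (2.56%, against 12.4%), CCAAT in 10 (25.6%, against 33.8%), and an E2F-type sequence (TTTGGCGC, TTTCCCGC, TTTGCCGC or TTTCGCGC) in 2 (5.13%, against 1.86%). The members' promoters were rich in CpG: the ratio of observed to expected CpG was over 0.6 in 36 of 39 (92.3%), against 34.0% of all promoters. The 32851 promoters were not limited to genes expressed in these hearts, so they are not a set matched to the members. Of the 5 called genes, 4 held a GC box, Brd3 and Actl6a with the limit above, and Chd1l did not. These matches describe the letters in the window and were not tested against the differences in level.

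Among the other canonical subunits, 3 stood wholly lower without passing, as did 17.3% of all genes with or without passing. Bcl7b measured 11.9 to 12.7 FPKM in Wtap-flox and 8.19, 7.08 and 10.7 FPKM in Wtap-CKO (log2 fold change -0.47, adjusted p = 0.0623). Bcl7a measured 3.96 to 4.90 FPKM against 2.86 to 3.34 FPKM (log2 fold change -0.40, adjusted p = 0.054), and Dpf2 14.7 to 15.8 FPKM against 10.7 to 13.2 FPKM (log2 fold change -0.36, adjusted p = 0.0694). Wtap-CKO 3 was the highest of its group in all 3 of these genes. Without it, Bcl7b (adjusted p = 0.0127) and Dpf2 (0.0294) passed. All 3 also passed under TPM (0.0168, 0.0233 and 0.0143 for Bcl7b, Bcl7a and Dpf2) and upper-quartile scaling (0.0339, 0.0367 and 0.0309), Bcl7b and Dpf2 under quantile normalization (0.0437 and 0.033), Bcl7b and Bcl7a by limma-voom (0.0451 and 0.0254), and Bcl7b with the length trend removed (0.0177). The third BCL7 gene, Bcl7c, went the other way, at 4.42, 4.68 and 4.21 FPKM against 5.09, 5.11 and 5.39 FPKM, all Wtap-CKO libraries higher (log2 fold change 0.19, adjusted p = 0.26). Bcl7c overlaps the noncoding gene Gm39090 (2.82 FPKM) on the opposite strand over 8859 bases, and reads of the pair may not be separated.

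The large DNA-binding subunits that define canonical BAF did not separate by group. Arid1a measured 18.3, 16.9 and 13.4 FPKM in Wtap-flox and 11.7, 17.7 and 13.3 FPKM in Wtap-CKO (log2 fold change -0.18, 95% interval -0.58 to 0.21). Arid1b measured 6.86, 5.71 and 4.42 FPKM against 5.05, 7.36 and 4.52 FPKM (log2 fold change -0.01, 95% interval -0.44 to 0.42). Both genes were high in Wtap-flox 1 and Wtap-CKO 2, and the spread within each group was as wide as the gap between groups. Ss18 (log2 fold change -0.03) and Ss18l1 (-0.18) overlapped too.

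Of the 5 genes of PBAF and non-canonical BAF, none passed, at a median log2 fold change of -0.22. Pbrm1, the polybromo subunit of PBAF, measured 11.8, 11.6 and 11.8 FPKM against 10.4, 10.6 and 7.45 FPKM, with Wtap-CKO 3 well below the others (log2 fold change -0.29, adjusted p = 0.197). Brd9, which marks non-canonical BAF, measured 9.51 to 9.71 FPKM against 6.82 to 8.89 FPKM (log2 fold change -0.27, adjusted p = 0.171; 0.0432 under TPM scaling). Brd7, the bromodomain subunit of PBAF, was instead higher in all Wtap-CKO libraries, at 14.2, 15.9 and 17.1 FPKM against 18.7, 18.3 and 20.2 FPKM (log2 fold change 0.26, 95% interval -0.0048 to 0.53, adjusted p = 0.165). Phf10 (log2 fold change -0.22) and Arid2 (-0.15) overlapped. On the opposite strand, Pbrm1 shares 33461 bases with Smim4 and Phf10 shares 14562 bases with 1600012H06Rik, so their levels carry the same limit as Smarcd3.

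Of the genes with a Chd symbol, 9 were tested, 1 fell (Chd1l, which has no chromodomain) and 0 rose, at a median log2 fold change of -0.08. Over all genes, 6.69% fell and 9.91% rose. Chd1l, an SNF2 enzyme recruited by poly(ADP-ribose) at DNA damage, measured 5.33, 5.93 and 5.57 FPKM in Wtap-flox and 3.19, 3.61 and 4.42 FPKM in Wtap-CKO. All Wtap-CKO libraries were lower, Wtap-CKO 3 the least so. The log2 fold change was -0.49 (95% interval -0.78 to -0.19, adjusted p = 0.0338). The call was lost on leaving out Wtap-CKO 1 (adjusted p = 0.12), Wtap-CKO 2 (0.0702), Wtap-flox 1 (0.073), Wtap-flox 2 (0.119) or Wtap-flox 3 (0.0862), and with a replicate block (0.0536). Chd1l (ENSMUSG00000028089) lies on the minus strand at chr3:97560742-97610203.

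Chd4, the ATPase of NuRD and the member with the highest level, measured 45.6, 45.1 and 39.9 FPKM in Wtap-flox and 35.3, 40.3 and 38.8 FPKM in Wtap-CKO. Wtap-CKO 2 lay above Wtap-flox 3, so the groups overlapped (log2 fold change -0.19, 95% interval -0.47 to 0.10, adjusted p = 0.35). Its paralog Chd3 measured 14.6, 12.9 and 9.71 FPKM against 12.1, 15.4 and 13.7 FPKM (log2 fold change 0.15, adjusted p = 0.58). Chd6 had the highest log2 fold change of any member. It measured 6.81, 4.52 and 4.62 FPKM in Wtap-flox and 7.52, 10.5 and 6.33 FPKM in Wtap-CKO, and Wtap-flox 1 lay above Wtap-CKO 3 (log2 fold change 0.52, 95% interval 0.07 to 0.98, adjusted p = 0.109). Chd7 (-0.13), the gene of CHARGE syndrome, and Chd1 (-0.12), Chd9 (-0.08), Chd8 (-0.07) and Chd2 (0.09) had intervals that span 0.

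Of the 3 other SNF2 ATPases, none passed. Smarca5, the ISWI motor SNF2H, measured 7.71, 9.09 and 10.4 FPKM in Wtap-flox and 6.87, 6.86 and 5.72 FPKM in Wtap-CKO. The Wtap-CKO libraries were all lower (log2 fold change -0.42, adjusted p = 0.0667). The gene passed under TPM (adjusted p = 0.023), quantile (0.0476) and upper-quartile scaling (0.0334) and by limma-voom (0.0386). Smarcad1 (-0.12) and Smarcal1 (0.03), enzymes of DNA repair and fork restart, overlapped.

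All 5 tested bromodomain genes outside BAF had a log2 fold change below 0, at a median of -0.28, and 1 fell. Over all genes, 49.6% lay below 0 and 6.69% fell. Brd3, a BET gene, measured 16.2, 14.8 and 12.6 FPKM in Wtap-flox and 8.78, 10.4 and 8.70 FPKM in Wtap-CKO. The groups did not overlap, and Wtap-flox 3 was the lowest of its own. The log2 fold change was -0.59 (95% interval -0.89 to -0.29, adjusted p = 0.0179). Leaving out Wtap-CKO 1 (adjusted p = 0.0665), Wtap-flox 1 (0.065) or Wtap-flox 2 (0.0676) ended the call. Brd3 (ENSMUSG00000026918) lies on the minus strand at chr2:27445579-27507662. Its relative Brd2 measured 20.5 to 25.2 FPKM against 17.9 to 19.2 FPKM, all Wtap-CKO libraries lower (log2 fold change -0.29, adjusted p = 0.136; 0.0454 under TPM scaling). Brd8, a subunit of the TIP60 acetyltransferase complex, measured 6.69 to 7.12 FPKM against 4.93 to 6.57 FPKM (log2 fold change -0.28, adjusted p = 0.164), and passed without Wtap-CKO 3 (adjusted p = 0.044) and under TPM scaling (0.0406).

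The 5 genes with an Ino80 symbol showed no call, and in none did the groups separate. Their log2 fold changes ran from -0.11 (Ino80d) to 0.09 (Ino80b), and their summed level was 26.8 to 28.4 FPKM in Wtap-flox and 25.8 to 28.5 FPKM in Wtap-CKO. Ss18l2, a small relative of Ss18 in no role group, measured 10.1, 12.8 and 11.1 FPKM against 14.4, 13.3 and 22.7 FPKM (log2 fold change 0.50, adjusted p = 0.118). Wtap-CKO 3 was far above the other libraries in this gene.

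Because paralogs compete for the same seat in a complex, each gene's share of its family's summed FPKM was also compared, a measure that library scaling does not alter. With 3 libraries a group the smallest exact two-sided permutation p is 0.1 (adjusted over 26 shares in 11 families, 0.163), so no share can pass. In 16 of the 26 shares the groups did not overlap, 9 lower and 7 higher in Wtap-CKO. A family's shares depend on each other, and no other gene families were counted, so this count has no background. Of single genes, 17.3% stood wholly lower and 19.8% wholly higher. Smarcd1 held 43.0% ± 1.63 of the Smarcd family in Wtap-flox and 33.5% ± 1.62 in Wtap-CKO, while the Smarcd3 share was 30.1% ± 3.35 against 37.6% ± 1.08 (each SD, n = 3). So Smarcd1 was the leading Smarcd gene in Wtap-flox and Smarcd3 in Wtap-CKO. Dpf3 held 16.5% ± 1.46 of the Dpf family in Wtap-flox and 10.8% ± 1.71 in Wtap-CKO. Bcl7c held 21.2% ± 1.31 of its family against 31.0% ± 3.05. Chd4 held 77.9% ± 2.37 of the Chd3, Chd4 and Chd5 sum against 73.4% ± 1.09, and Chd6 held 37.6% ± 4.37 of its family against 49.9% ± 4.17. The Smarcd3 share carries the limit of its overlap with Chpf2 (4.33 FPKM), and the Bcl7c share that of its overlap with Gm39090 (2.82 FPKM). The shares of Smarca2, Smarcc1, Arid1a and Ss18 overlapped.

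**Figure D3:**
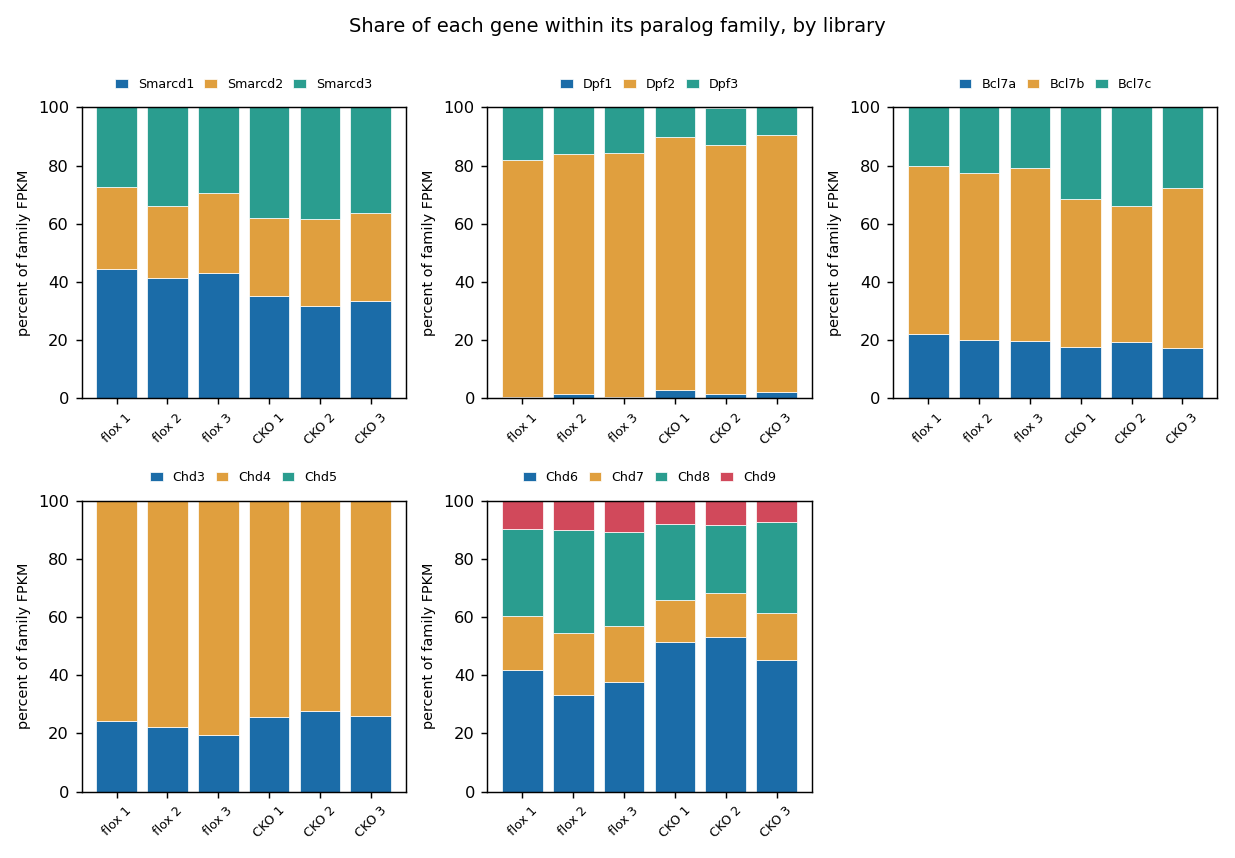
Stacked bars give each gene's percent of the summed FPKM of its paralog family (y axis, 0 to 100) in each of the 6 libraries, for 5 families. The Smarcd1 share lies between 41.3% and 44.5% in Wtap-flox and between 31.9% and 35.1% in Wtap-CKO, and the Chd6 share is higher in every Wtap-CKO library.

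Many remodeler genes are long, and the libraries differed in how length went with level. Over the 47 members, the correlation of log2 gene length with a library's deviation from its group mean stood at 0.695 for Wtap-CKO 2, -0.547 for Wtap-CKO 3, 0.494 for Wtap-flox 1 and -0.364 for Wtap-flox 3. The 12 members over 10 kb had a median deviation of 0.16 in Wtap-CKO 2 and -0.09 in Wtap-CKO 3. Over all 12568 genes the correlation was smaller, 0.280 and -0.278 in those libraries. Genes are not replicates, and those of a library share its RNA and handling, so no p is given. Arid1a, Arid1b and Chd6 are among the genes high in Wtap-CKO 2. Between the groups, length and log2 fold change were weakly related over the members (r = 0.145). With each library's length trend removed, an alternative added after the data were seen, 7 members fell (Smarcc1 and Bcl7b joining the 5; 14.9%, against 8.86% of all genes) and Chd6 rose (log2 fold change 0.59, adjusted p = 0.0224), where 10.8% of all genes rose.

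**Figure D4:**
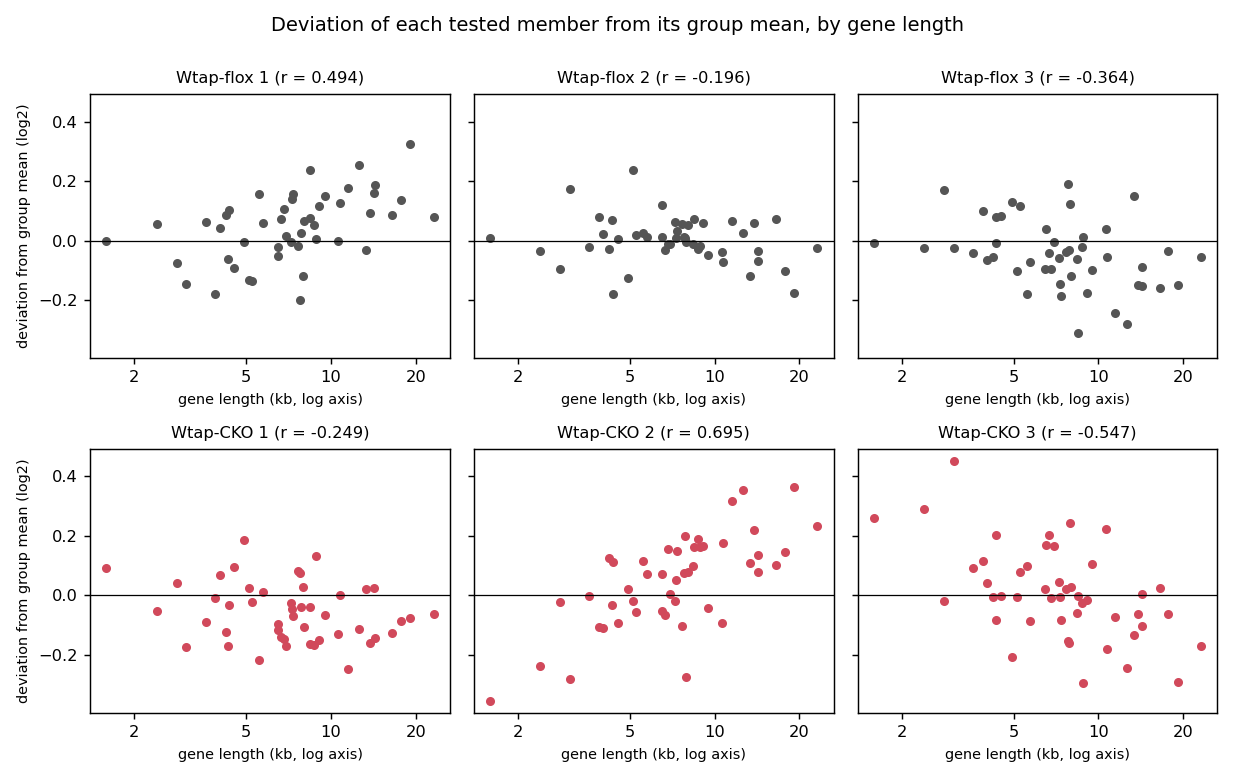
Each point is 1 tested member in 1 library, with gene length in kb on a log x axis and the deviation from the group mean on the log2 scale on the y axis. Points slope upward in Wtap-CKO 2 (r = 0.695) and Wtap-flox 1 (r = 0.494) and downward in Wtap-CKO 3 (r = -0.547).

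Genes that work with the members, in 5 lists, were read from the same fit. Of 74 tested partner genes, 4 fell and 1 rose, at a median log2 fold change of -0.08, where 6.69% of all genes fell and 9.91% rose, so the count of falls was no more than the background. None of 12 NuRD partners passed. The smallest adjusted p were those of the histone chaperone gene Rbbp4 (log2 fold change -0.36, adjusted p = 0.101), Gatad2a (0.29, adjusted p = 0.16) and Mbd3 (0.29, adjusted p = 0.221), with Wtap-CKO wholly lower for Rbbp4 and wholly higher for Mbd3. Of 17 ISWI partners and further SNF2 ATPases, Hells, a remodeler needed for DNA methylation, fell from 3.78, 4.33 and 5.01 FPKM to 2.05, 1.82 and 2.34 FPKM (log2 fold change -0.80, adjusted p = 0.00475). Of 24 partners in INO80, SRCAP and TIP60, Ing3 (log2 fold change -0.58, adjusted p = 0.0126) and Meaf6 (-0.43, adjusted p = 0.0349), both subunits of acetyltransferase complexes, fell. Of 18 elongation partners of BET proteins, Larp7, a holder of the 7SK RNA, fell (log2 fold change -0.50, adjusted p = 0.0383). Jmjd6, which encodes a JmjC-domain hydroxylase, rose from 7.74, 9.56 and 9.06 FPKM to 14.4, 13.5 and 17.2 FPKM (log2 fold change 0.71, adjusted p = 0.00875). The 3 tested BAF subunits outside the name rule had no call.

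Genes known as targets or partners of these complexes moved in part. Of 12 tested genes linked to BRG1 in the heart, 2 rose and 0 fell, where 9.91% of all genes rose and 6.69% fell. Of these 12, 6 had a log2 fold change above 0 and 6 below 0. Wtap-CKO stood wholly higher in 3 (Nppa, Adamts1 and Tbx5) and wholly lower in 1 (Hexim1, adjusted p = 0.237). Of all genes, 19.8% stood wholly higher and 17.3% wholly lower. Tbx5 did not pass (log2 fold change 0.41, adjusted p = 0.135). Nppa, the atrial natriuretic peptide, rose from 48.5, 131 and 52.7 FPKM to 992, 555 and 1606 FPKM (log2 fold change 3.77, adjusted p = 0.00764), and the protease gene Adamts1 from 11.3 to 18.8 FPKM to 39.9 to 66.1 FPKM (1.81, adjusted p = 0.00205). Bmp10, also in this list, missed the minimum level and was not tested. It measured 1.35, 0.518 and 0.716 FPKM in Wtap-flox and 0.0414, 0.0865 and 0.152 FPKM in Wtap-CKO. Of 19 skeletal muscle genes that CHD4 and NuRD are known to repress, 5 reached the minimum level. Acta1 (log2 fold change 2.55, adjusted p = 0.000732) and Casq1 (1.99, adjusted p = 0.00791) rose and Myl1 fell (-0.93, adjusted p = 0.00667). Chd4 itself did not pass, and no link between its level and these genes was tested.

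The m6A writer's preferred core, GGACT, was counted in the longest coding transcript of each member, from the GENCODE vM39 transcripts. The 5 called members held a median of 1.31 per kb (0.901 to 1.99), the 42 not called 0.933 per kb, and 11112 tested coding genes 1.04 per kb. Smarcd3, at 3.22 per kb, held the most of any member. A sequence match does not show methylation, which was not measured here.

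The share of members called lower depended on the setting, and so did that of all genes. Under another scaling it was 34.0% (all genes 12.6%) for TPM, 23.4% (9.48%) for upper-quartile and 21.3% (8.0%) for quantile normalization, and limma-voom on recovered reads gave 19.1% (8.46%). Pseudocounts of 0.1 and 0.5 gave 10.6% each (6.66% and 6.72%), a mean of at least 5 FPKM 9.09% (6.37%), no filter 4.0% (1.78%) and a replicate block 6.38% (4.97%). Without Wtap-CKO 1, 2 or 3 it was 4.26% (3.52%), 8.51% (5.43%) and 17.0% (6.51%). Without Wtap-flox 1, 2 or 3 it was 6.38% (4.31%), 4.26% (3.41%) and 6.38% (3.76%). The members' share was above that of all genes in each of these. It lay near that of all genes without Wtap-CKO 1 or Wtap-flox 2 (2 members each) and with a replicate block (3 members). These settings reuse the same 6 libraries and mostly the same genes, so their agreement is not repeated evidence.

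**Figure D5:**
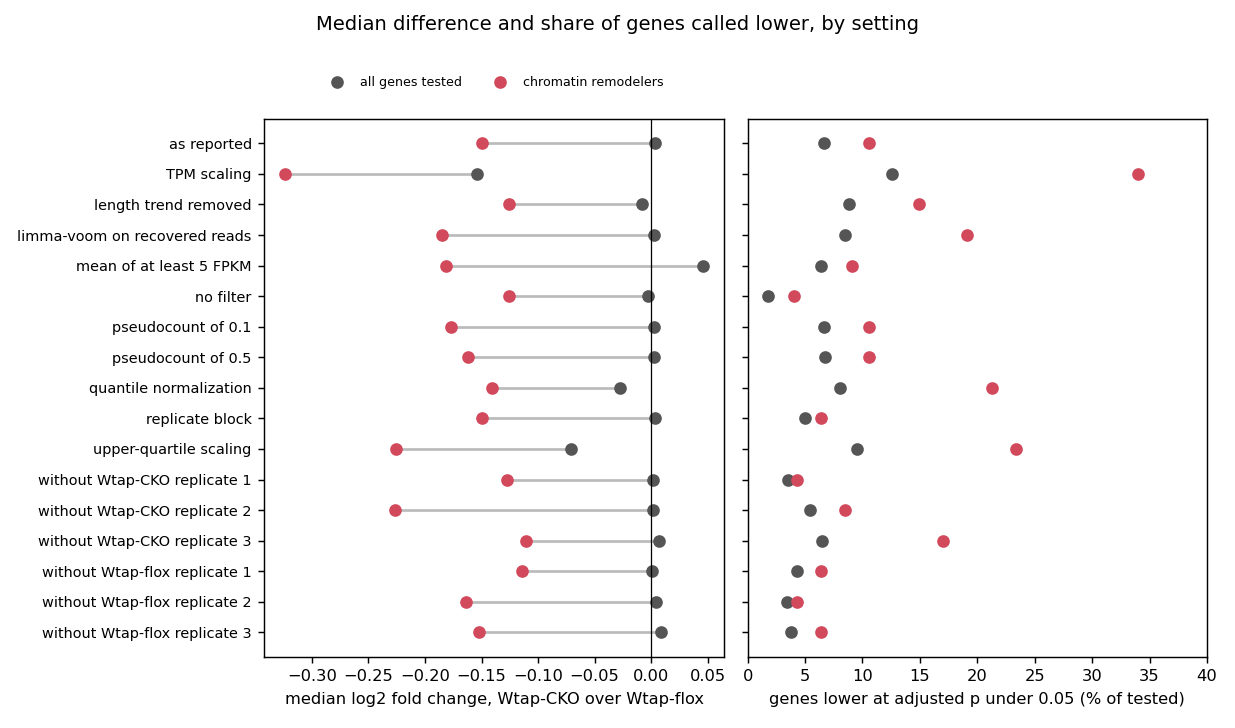
For the reported fit and each alternative setting (rows), the left panel gives the median log2 fold change of the members and of all genes tested, and the right panel the percent of each called lower. The members' median lies below that of all genes in every row, while the percent of members called lower runs from 4.0% without a filter to 34.0% under TPM scaling.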

How the data were processed

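Polyadenylated RNA from 6 mouse hearts was read from both ends (150 bases). Per the submitters' processing notes, the tools were CASAVA, HISAT2 2.0.5, featureCounts 1.5.0-p3 and DESeq2 1.20.0. The authors deposited FPKM per gene and library. The notes name GRCm39, but 96.1% of the members start or end within 1000 bases of their place in RefSeq GRCm38.p6 and 1.96% of theirs in GRCm39 (GENCODE vM39), so positions are given as GRCm38. FPKM times gene length gave whole reads for 100% of values within 0.01.

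Genes averaging 1 FPKM or more entered limma 3.58.1 (R 4.3.3), which modelled log2(FPKM + 1) per library with trend and robust moderation, two-sided, adjusted by Benjamini-Hochberg over all 12568 genes (threshold 0.05). Fold changes are on the log2(FPKM + 1) scale, which understates those of low genes. Intervals are at 95%. The procedure was tested on simulated counts with the same dispersion for all genes and no library or length effects. That test does not cover the library differences described above. Tables and figures used Python 3.11.15, pandas 2.3.3, scipy 1.17.1 and matplotlib 3.10.9.

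The members and the gene lists were chosen with earlier results of these data known. All members, Wtap and the defining cell type markers could be named. So could up to 3 genes of each other list by smallest adjusted p, with the first in the opposite direction. The untested list genes Bmp10, Bcl11a, Bcl11b, Ell2 and Tnnt3 are named outside this rule. Replicate numbers did not pair the libraries. Of 16 alternatives, removal of the length trend was added after the data were seen. Sequences and promoters are from RefSeq GRCm38.p6, whose table matched 39 members, and sequence of the 3 members on chromosome 18 is not shown. The values of 1 member that was tested and counted are not reported here.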

Additional observations from a re-analysis of the deposited data

How the results depend on the processing

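The counts of genes called moved with scaling and filters. Members lower numbered 5 as reported and 16 under TPM scaling, 11 under upper-quartile scaling, 10 under quantile normalization, 9 by limma-voom on recovered reads, 7 with the length trend removed, 3 at a mean of at least 5 FPKM and 2 of 50 without a filter. Leaving out 1 library gave 2 to 8: 2 without Wtap-CKO 1 or Wtap-flox 2, 3 without Wtap-flox 1 or 3, 4 without Wtap-CKO 2 and 8 without Wtap-CKO 3. Members higher numbered 0 in each, except 1 (Chd6) with the length trend removed. The FPKM of a library summed to 315632 to 339917 in Wtap-flox and 357870 to 388328 in Wtap-CKO, so TPM scaling, which sets these sums equal, moved the median of all genes to -0.15. Upper-quartile scaling moved it to -0.07. As deposited it was 0.00, where the scaling by median ratios holds it. The members' median less that of all genes stayed between -0.23 and -0.11. The share of higher genes among all calls was 59.7% as reported, 33.4% under TPM and 45.4% under upper-quartile scaling. Smarcd1 was called in 16 of 16 alternatives and Dpf3 in 15 of 15, Brd3 in 12 of 16, Actl6a in 10 of 16 and Chd1l in 8 of 15. Without a filter Brd3, Actl6a and Chd1l were lost (adjusted p = 0.0559, 0.0946 and 0.0858). Apart from the scaling itself, the cause of these shifts was not tested.

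With the replicate number as a block, 3 members fell (Brd3, Dpf3 and Smarcd1) and 2 partner genes. Same-numbered libraries did not deviate together (correlations -0.216, -0.0752 and -0.0764), and no library correlated best with its own number. With 3 libraries a group, these values show no sign of pairing but cannot exclude shared litters or batches.

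All genes lower numbered 841 as reported, 1584 under TPM, 471 at 5 FPKM, 483 without a filter and 428 to 818 without 1 library. Genes higher numbered 1245, 796 under TPM, 723 without a filter and 709 to 1194 without 1 library. Partner genes lower numbered 4, 13 under TPM, 9 under upper-quartile scaling, 8 under quantile normalization, 7 by limma-voom, 6 with the length trend removed and 2 to 7 without 1 library. Partner genes higher numbered 1, 2 with the length trend removed and 1 to 2 without 1 library.

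Some log2 fold changes near 0 changed sign. Under TPM scaling these were Chd3 (-0.009), Smarce1 (-0.032), Smarcd3 (-0.13), Smarcb1 (-0.15), Ino80b (-0.068), Smarcal1 (-0.13) and Chd2 (-0.059). Under quantile normalization they were Smarcd3 (-0.031), Smarcb1 (-0.025) and Smarcal1 (-0.005). With upper-quartile scaling they were Smarcd3 (-0.054), Smarcb1 (-0.067) and Smarcal1 (-0.047). With the length trend removed they were Wtap (0.006), Brd1 (0.034), Ino80b (-0.044), Arid1b (0.044), Ino80 (0.033) and Ino80e (0.018). Without 1 library the ranges were -0.13 to 0.086 for Wtap, -0.080 to 0.015 for Ss18, -0.008 to 0.27 for Chd3, -0.039 to 0.15 for Smarcd3, -0.12 to 0.009 for Ino80c, -0.070 to 0.017 for Brd1, -0.11 to 0.15 for Smarcb1, -0.043 to 0.26 for Ino80b, -0.005 to 0.073 for Smarcal1, -0.19 to 0.12 for Arid1b, -0.092 to 0.059 for Ino80, -0.075 to 0.017 for Ino80e and -0.20 to 0.002 for Chd9.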

Other observations

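Smarca1, an ISWI gene on the X chromosome that the name rule leaves out, measured 1.99, 2.53 and 3.19 FPKM in Wtap-flox and 3.61, 2.98 and 1.95 FPKM in Wtap-CKO, overlapping. The processed pseudogene Smarce1-ps1 was listed at 4.32 to 5.45 FPKM in Wtap-flox and 3.69 to 7.30 FPKM in Wtap-CKO, so reads of Smarce1 and its copy may be divided between the records. Bcl11b, a BAF subunit outside the name rule, missed the minimum level and was not tested. It measured 1.22, 0.946 and 0.912 FPKM in Wtap-flox and 0.221, 0.247 and 0.308 FPKM in Wtap-CKO. Untested list genes went both ways: Bcl11a was also wholly lower in Wtap-CKO, and Ell2 and Tnnt3 were wholly higher.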
